A study of Homo sapiens with 12 samples.

Results

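The expression of 10 imprinted genes linked to embryonic growth was followed through the stepwise differentiation of human pluripotent stem cells into blood progenitors. The genes were H19, IGF2, MEG3, DLK1, PEG10, PEG3, MEST, CDKN1C, SNRPN and NNAT, chosen by symbol from the 56593 distinct symbols of the expression table, and each of them stood on 1 line. Imprinted genes are read mainly from the copy inherited from 1 parent, under the control of methylation set in the germ line that differs between the copies. At some clusters a noncoding RNA keeps a copy silent. They sit in clusters in which a maternally and a paternally read gene often share control elements. Several act on growth in opposite ways, with IGF2 as a paternally read growth factor and CDKN1C as a maternally read brake on the cell cycle.

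RNA was sequenced from undifferentiated H1 cells, a widely used human embryonic stem cell line, and from 3 populations derived from them in a chemically defined medium. Cells were treated first with Activin A and BMP4, then with VEGF and bFGF. APLNR+ mesoderm cells were collected at day 2, CD31+CD34+ hemogenic endothelial progenitors at day 5 and CD43+ hematopoietic progenitors at day 8, with 3 libraries per population. All 12 libraries came from a single line, and the labels do not say that the libraries of a population were separate cultures, so p-values measure only the spread between these libraries. Values are FPKM, fragments scaled to transcript length and library size, so levels are compared between genes per length. Between 12297 and 13060 entries reached 1 FPKM in a library, and relative depth, read from the spacing of low values, ranged from 0.555 to 1.27 times that of CD43+ replicate 3. The share of a library's summed FPKM that lay in small RNA genes ranged from 10.4% to 66.2%, and leaving them out of the scaling changed no member's call. Pluripotent cell markers summed to between 2062 and 2158 FPKM in H1 and between 148 and 171 FPKM in CD43+ cells, and the 6 blood markers to between 6.92 and 9.83 FPKM in H1 and between 1194 and 1332 FPKM in CD43+ cells. The 6 endothelial markers summed to between 533 and 698 FPKM in CD31+CD34+ cells and between 325 and 410 FPKM in CD43+ cells. All 6 of them reached 1 FPKM in CD43+ cells. PTPRC, the pan-leukocyte CD45 gene, stayed at or under 0.521 FPKM in the CD43+ libraries.

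Start-site windows from RefSeq (GRCh38.p14, 250 bases before to 50 after each annotated start) were matched by symbol for 4 of the 10 genes: H19, MEG3, MEST and SNRPN. IGF2, DLK1, PEG10, PEG3, CDKN1C and NNAT were not matched. The 3 windows below are shown because H19 and MEG3 are the noncoding partners of the most strongly raised genes, IGF2 and DLK1, and because SNRPN and SNURF, both lower in CD43+ than in H1 cells, share 1 window. They are written 5′ to 3′ on the strand of the gene, with every CG dinucleotide, the target of imprint methylation, in capitals.
H19 (chr11:2001217-2001516, minus strand): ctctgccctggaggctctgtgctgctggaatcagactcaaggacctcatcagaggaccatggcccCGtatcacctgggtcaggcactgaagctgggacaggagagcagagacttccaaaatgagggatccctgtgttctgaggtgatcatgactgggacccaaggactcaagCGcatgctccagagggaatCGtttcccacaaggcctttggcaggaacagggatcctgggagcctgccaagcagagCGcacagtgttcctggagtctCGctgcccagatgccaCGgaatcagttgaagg
MEG3 (chr14:100825858-100826157, plus strand): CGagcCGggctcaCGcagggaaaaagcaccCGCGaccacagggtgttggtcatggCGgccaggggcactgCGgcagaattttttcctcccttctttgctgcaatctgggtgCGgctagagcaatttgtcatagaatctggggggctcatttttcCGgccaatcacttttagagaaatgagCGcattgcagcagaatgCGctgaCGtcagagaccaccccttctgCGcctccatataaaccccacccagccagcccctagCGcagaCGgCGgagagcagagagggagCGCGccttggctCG
SNRPN and SNURF (chr15:24954737-24955036, plus strand): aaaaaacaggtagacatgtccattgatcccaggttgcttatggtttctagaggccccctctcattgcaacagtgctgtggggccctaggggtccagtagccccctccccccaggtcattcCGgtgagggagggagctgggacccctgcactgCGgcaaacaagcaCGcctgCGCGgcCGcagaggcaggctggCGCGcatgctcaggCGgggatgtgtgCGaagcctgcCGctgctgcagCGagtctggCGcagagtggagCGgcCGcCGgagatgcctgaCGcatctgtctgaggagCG
The H19 window held 6 CG dinucleotides, a number reached by 66.2% of the 34943 windows in the table. The MEG3 window held 19 and the SNRPN window 18, reached by 42.8% and 44.3% of windows, against a median of 14. On either strand, the letters TATAAA and CCAAT both occurred in the MEG3 window and neither in the H19 or SNRPN window, and GGGCGG occurred in none of the 3. Over all windows, TATAAA was present in 11.6%, CCAAT in 34.6% and GGGCGG in 44.9%. Across the 5 MEST windows CG counts ran from 13 to 25, and the other SNRPN windows held from 2 to 11. No methylation was measured in these libraries.

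Of the 10 genes, 7 reached 1 FPKM in at least 3 libraries and were tested, and H19, MEG3 and PEG3 did not. A gene was called at a Benjamini-Hochberg adjusted p under 0.05 by limma and a log2(FPKM + 1) difference of 2-fold or more, a scale on which low genes appear to change less. At the first step, into APLNR+ cells, 2 of the 7 were called, against 15.9% of the 14840 genes tested. PEG10 was raised, as were 8.3% of all genes, and MEST was lowered, as were 7.62%. From APLNR+ to CD31+CD34+ cells 3 were called, against 29.6% of all genes, with IGF2 and CDKN1C raised (12.5% of all genes) and PEG10 lowered (17.1%). From CD31+CD34+ to CD43+ cells 3 of 7 were called against 14.4%, with IGF2 and DLK1 raised (5.58% of all genes) and PEG10 lowered (8.79%). Between H1 and CD43+ cells 5 were called against 37.1%, with IGF2, DLK1 and CDKN1C raised (14.6% of all genes) and PEG10 and SNRPN lowered (22.5%). NNAT was called in no comparison. The median change of the 7 genes was 0.32, 0.45 and 0.19 at the consecutive steps and -0.01 between H1 and CD43+ cells, beside -0.12, -0.01, -0.0049 and -0.10 for all genes tested.

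**Figure D1:**
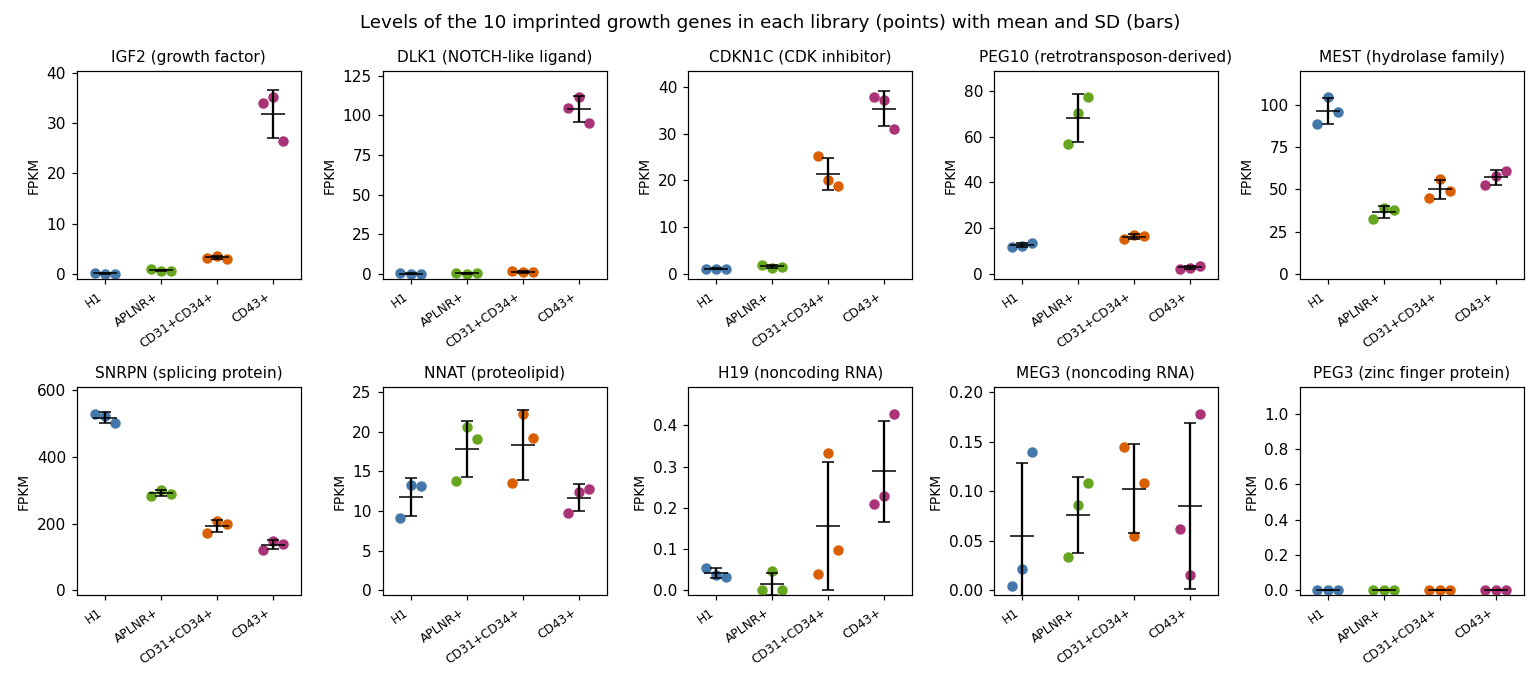
Level of each of the 10 genes (y axis, FPKM, a separate scale per gene) in the 4 populations (x axis), with a point per library and bars for the mean and SD of 3 libraries. IGF2 and DLK1 stood highest in CD43+ cells, PEG10 in APLNR+ cells and SNRPN in H1 cells, and PEG3 was listed at 0 in all 12 libraries.

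The set was dominated by SNRPN, the highest of the 10 in all 12 libraries. It made up between 79.9% and 82.6% of the summed FPKM of the 10 genes in H1 libraries and between 33.6% and 37.4% in CD43+ libraries. In H1 cells 4 of the 10 were at 1 FPKM or more in all 3 libraries and 5 were under 1 FPKM in all 3. In CD43+ cells 7 were at or above 1 FPKM in all 3 libraries, and the other 3 were H19, MEG3 and PEG3.

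IGF2 encodes a fetal growth factor that signals through the IGF1 and insulin receptors. It was listed at 0.165, 0.0759 and 0.0313 FPKM in the H1 libraries and at 0.883, 0.655 and 0.539 FPKM in APLNR+ cells. It reached 3.26, 3.63 and 3.05 FPKM in CD31+CD34+ cells and 34.1, 35.2 and 26.4 FPKM in CD43+ cells. The libraries of the 4 populations did not overlap, and the level was higher in each population than in the one before it. The population means stood at 0.0907 ± 0.0679, 0.692 ± 0.175, 3.31 ± 0.296 and 31.9 ± 4.75 FPKM (SD, n = 3 each). At the first step IGF2 changed by 0.63 ± 0.12 (SE, limma adjusted p 0.000943), under 2-fold on the log2(FPKM + 1) scale, although the FPKM means differed 7.64-fold, and the step was called with a pseudocount of 0.1 (log2 change 2.09). The next step gave a log2 change of 1.35 (adjusted p 1.07e-06), or 4.78-fold in mean FPKM, and the last gave 2.92 (adjusted p 2.92e-09), or 9.63-fold. Between H1 and CD43+ cells the log2 change was 4.91 ± 0.12 (adjusted p 9.18e-12), with exact two-sided permutation p of 0.1, the smallest that 3 against 3 libraries can give. In bulk libraries a change in the number of cells that express a gene and a change in its RNA per cell cannot be told apart.

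The read-through gene INS-IGF2, which shares 19.7% of the 50-base stretches of IGF2 transcripts in GENCODE release 29, was listed at essentially 0 (at most 1.59e-30 FPKM) in all 12 libraries. How reads shared by them were divided is not given in the sources used here. IGF2-AS, an antisense transcript at the same locus, stayed at or under 0.417 FPKM and was highest in CD43+ cells at 0.360, 0.417 and 0.416 FPKM. The library kit does not mark strand, so reads of IGF2 and of its antisense partner cannot be told apart where they overlap.

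DLK1 encodes a membrane protein with EGF-like repeats that resembles NOTCH ligands and restrains differentiation in several fetal tissues. Its levels were 0.299, 0.250 and 0.211 FPKM in H1 cells and 0.486, 0.263 and 0.379 FPKM in APLNR+ cells, and these populations overlapped. It stood at 1.74, 1.11 and 0.900 FPKM in CD31+CD34+ cells and at 105, 111 and 95.1 FPKM in CD43+ cells. The rise was concentrated in the last step, at which the lowest CD43+ library lay far above the highest library of the other populations. At the last step DLK1 rose by 5.55 ± 0.13 on the log2 scale (SE, limma adjusted p 3.18e-11), from a mean of 1.25 ± 0.438 to 104 ± 8.13 FPKM (SD, n = 3), or 82.8-fold. The preceding step changed by 0.70 (adjusted p 0.000446), under 2-fold, and the first by 0.13 (adjusted p 0.419). With a pseudocount of 0.1 the step from APLNR+ to CD31+CD34+ cells passed 2-fold as well (log2 change 1.49). Over the whole series the log2 change was 6.38 (adjusted p 1.97e-12), the largest among the 7 genes tested. No 50-base stretch of DLK1 transcripts was shared with another gene.

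Markers of other tissues that use IGF2 and DLK1 were examined in the same libraries. The 6 trophoblast markers summed to between 0.360 and 0.927 FPKM in CD43+ cells, with CGA, CGB5 and PSG1 at 0, and none reached 1 FPKM. The 6 endoderm markers summed to between 7.80 and 9.32 FPKM in CD43+ cells and between 34.4 and 44.8 FPKM in CD31+CD34+ cells. SOX17 was the highest of them in CD31+CD34+ cells. Its mean was 24.2 FPKM there and 1.40 FPKM in CD43+ cells (log2 change -3.38). Of the 4 endoderm markers tested, 1 was raised and 3 were lowered at the last step, against 5.58% and 8.79% of all genes. Their median change was -1.54, beside -0.0049 over all genes. The 1 raised was TTR, a plasma carrier made by liver and yolk sac. It was at 0.168, 0.158 and 0.290 FPKM before the step and 4.21, 4.92 and 3.97 FPKM after it. APOA1 fell from a mean of 11.0 to 2.02 FPKM (log2 change -2.01). AFP, the fetal serum protein gene, was at 0.426, 0.621 and 1.09 FPKM in CD43+ cells, below its levels of 2.33, 3.03 and 2.37 FPKM in CD31+CD34+ cells. The 8 stromal and smooth muscle markers summed to between 374 and 449 FPKM before the step and between 119 and 147 FPKM after it. Of the 7 tested, 1 was raised and 3 were lowered, against 5.58% and 8.79% of all genes. Their median change was 0.36, beside -0.0049 over all genes. TAGLN, a smooth muscle actin-binding protein gene, went from a mean of 274 to 15.7 FPKM (log2 change -4.04), and ACTA2, the smooth muscle actin gene, from 10.2, 16.5 and 13.3 FPKM to 27.1, 40.5 and 36.8 FPKM (1.32). Blood markers rose in the same step, from between 21.1 and 28.2 FPKM to between 1194 and 1332 FPKM, and most of it lay in ITGA2B, a platelet integrin, at 567, 574 and 585 FPKM, and the embryonic globin HBE1 at 482, 564 and 530 FPKM. The part of any of these cell types in the rise of IGF2 and DLK1 was not tested.

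H19 and MEG3 are maternally read noncoding RNAs that share imprinted domains with IGF2 and DLK1. H19 was listed at 0.0544, 0.0378 and 0.0312 FPKM in H1 cells, at 0, 0.0464 and 0 FPKM in APLNR+ cells, at 0.0400, 0.332 and 0.0971 FPKM in CD31+CD34+ cells and at 0.209, 0.227 and 0.429 FPKM in CD43+ cells. The CD43+ libraries lay above the H1 libraries (exact two-sided permutation p 0.1, the smallest possible) and overlapped those of CD31+CD34+ cells. In a fit without the filter on low values its change from H1 to CD43+ cells was 0.30 on the log2(FPKM + 1) scale (limma adjusted p 0.0186), under 2-fold. MEG3 ranged from 0.00386 to 0.179 FPKM over the 12 libraries, and every pair of neighbouring populations overlapped. H19 and MEG3 thus stayed under 1 FPKM in the libraries in which IGF2 averaged 31.9 and DLK1 104 FPKM. MEG8, a further noncoding RNA of the DLK1 domain, was at or under 0.268 FPKM, and RTL1, a retrotransposon-derived coding gene between DLK1 and DIO3, at or under 0.150 FPKM.

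**Figure D2:**
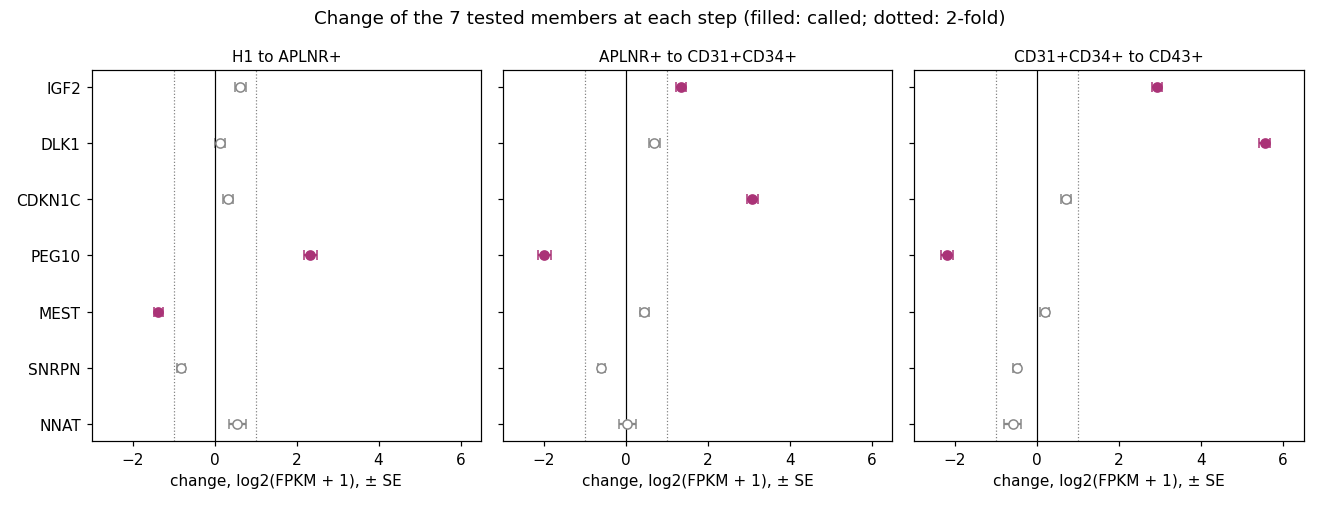
Change of the 7 tested genes at each step on the log2(FPKM + 1) scale (x axis, with SE from limma), with filled points for called changes and dotted lines at 2-fold. PEG10 was called at all 3 steps, up by 2.34 and then down, and DLK1 was called at the last step alone, up by 5.55.

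CDKN1C encodes p57, a maternally read inhibitor of cyclin-dependent kinases. Its values were 1.16, 0.980 and 1.12 FPKM in H1 cells and 1.99, 1.32 and 1.57 FPKM in APLNR+ cells. CD31+CD34+ libraries held 25.2, 20.0 and 18.8 FPKM and CD43+ libraries 37.7, 37.2 and 31.0 FPKM. No 2 populations overlapped, and the step into CD31+CD34+ cells was the largest, at 3.09 ± 0.13 on the log2 scale (SE, limma adjusted p 1.82e-09) or 13.1-fold in mean FPKM. The first step, 0.32 (adjusted p 0.0526), did not pass the test, and the last, 0.71 (adjusted p 0.000727), passed it at under 2-fold. Over the series CDKN1C rose by 4.12 on the log2 scale (adjusted p 6.6e-11).

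The other inhibitors of the same family are not imprinted. CDKN1A, which encodes p21, went from 4.51 ± 0.340 FPKM in H1 to 88.8 ± 9.15 FPKM in CD43+ cells (SD, n = 3), a log2 change of 4.02 (limma adjusted p 1.2e-11), and its first step was called (2.03) where that of CDKN1C was not. CDKN1B, which encodes p27, stayed between 5.62 and 7.89 FPKM and was called in no comparison. No 50-base stretch of CDKN1C was shared with another gene. KCNQ1OT1, the noncoding RNA that silences CDKN1C on the paternal copy, lay between 0.768 and 1.14 FPKM in all libraries. Its changes ran from -0.20 to 0.19, none of them called. Those at the first step (-0.20, limma adjusted p 0.0325) and the last (0.19, adjusted p 0.0419) passed the test at under 2-fold. SLC22A18, a transporter gene of the same domain, rose from 0.331 FPKM in H1 to 1.88 FPKM in CD43+ cells (log2 change 1.10, called).

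PEG10, a paternally read gene derived from a retrotransposon and needed for the placenta, followed a course of its own among the 7. It stood at 11.8, 12.3 and 13.6 FPKM in H1 cells and at 56.7, 70.4 and 77.2 FPKM in APLNR+ cells. It then went to 15.2, 17.1 and 16.6 FPKM in CD31+CD34+ cells and to 2.05, 2.76 and 3.62 FPKM in CD43+ cells. All 3 steps were called, with log2 changes of 2.34 ± 0.15 (SE, limma adjusted p 6.97e-08), -1.99 (adjusted p 1.94e-07) and -2.20 (adjusted p 1.5e-07). Mean FPKM rose 5.41-fold into mesoderm, fell by a factor of 4.17 into CD31+CD34+ cells and by a factor of 5.81 into CD43+ cells. CD43+ cells ended below H1 cells, with a change of -1.85 (adjusted p 2.28e-07).

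SGCE, a sarcoglycan gene that starts beside PEG10 on the opposite strand, moved less. Its H1 mean was 5.57 ± 0.795 FPKM and its APLNR+ mean 7.75 ± 1.77 FPKM (SD, n = 3), with a change of 0.40 that did not pass the test (limma adjusted p 0.136), and it was lowered at the next step (-1.18, adjusted p 0.000374). The ratio of PEG10 to SGCE FPKM lay between 1.97 and 2.51 in H1 libraries and between 7.84 and 9.90 in APLNR+ libraries, with no overlap (exact two-sided permutation p 0.1, 0.167 after adjustment over 20 ratio tests). CALCR, the calcitonin receptor gene of the same domain, was raised with it in APLNR+ cells, from 0.827, 0.684 and 0.500 FPKM to 3.68, 4.88 and 4.53 FPKM. It fell with it too, to 0.545, 0.432 and 0.398 FPKM in CD31+CD34+ cells, and was listed at 0 in the 3 CD43+ libraries. PPP1R9A, a neuronal scaffold gene on the other side of PEG10, was lowered at the first step (-1.11).

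SNRPN encodes the SmN protein of the spliceosome and is read from the paternal copy. The H1 libraries held 530, 523 and 501 FPKM, APLNR+ libraries 283, 301 and 289 FPKM, CD31+CD34+ libraries 172, 208 and 199 FPKM and CD43+ libraries 122, 149 and 137 FPKM. No 2 populations overlapped, and each lay below the one before it. Every step passed the test without reaching 2-fold, with log2 changes of -0.83 (limma adjusted p 1.41e-05), -0.59 (adjusted p 0.000132) and -0.50 (adjusted p 0.000869). They added to -1.93 ± 0.10 between H1 and CD43+ cells (SE, adjusted p 2.88e-09), a fall by a factor of 3.81 in mean FPKM.

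SNURF, read from the same start site whose sequence is printed above, averaged 15.2 ± 2.75, 13.1 ± 1.88, 4.78 ± 2.14 and 5.61 ± 1.71 FPKM in the 4 populations (SD, n = 3). It was lowered at the step into CD31+CD34+ cells (log2 change -1.35, limma adjusted p 0.000627) and over the series (-1.31, adjusted p 0.000714). SNRPN shares 18.4% of its 50-base stretches with SNURF, so the division of reads between them is uncertain. SNHG14 is the long noncoding host RNA that continues through the snoRNA clusters of the Prader-Willi region, and PWAR5 and PWAR6 are noncoding RNAs within it. SNHG14 fell from 271, 300 and 302 FPKM in H1 cells to 167, 174 and 180 FPKM in APLNR+ cells and 46.9, 56.4 and 58.8 FPKM in CD31+CD34+ cells, and stood at 43.8, 43.6 and 51.1 FPKM in CD43+ cells. Its fall was steepest at the step into CD31+CD34+ cells (-1.67, adjusted p 3.28e-08), as were those of PWAR5 (-2.90, adjusted p 3.1e-10) and PWAR6 (-2.37, adjusted p 2.51e-08). PWAR5 ended at 5.76, 5.11 and 5.71 FPKM and PWAR6 at 2.92, 2.46 and 2.89 FPKM in CD43+ cells, from means of 74.9 and 30.9 FPKM in H1.

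SNRPN and SNHG14 parted at that step. Their FPKM ratio lay between 1.61 and 1.73 in APLNR+ libraries and between 3.38 and 3.68 in CD31+CD34+ libraries (exact two-sided permutation p 0.1, 0.167 after adjustment over the 20 ratio tests). NDN, a paternally read gene of the same region, averaged 9.27 ± 1.49 FPKM in H1 (SD, n = 3), stood at 12.4, 14.6 and 15.1 FPKM in CD43+ cells and was called in no comparison. UBE3A, the ubiquitin ligase gene at the far end of the region, was not called in any comparison either, but it fell. It averaged 43.1 FPKM in H1, 45.4 FPKM in APLNR+, 29.1 FPKM in CD31+CD34+ and 22.2 FPKM in CD43+ cells. Its change between H1 and CD43+ cells passed the test at just under 2-fold (log2 change -0.93, limma adjusted p 1.18e-05). SNRPB, which encodes the closely related and widely used SmB proteins, averaged 340 ± 81.2 FPKM in H1, 214 ± 38.3 FPKM in APLNR+ and 381 ± 36.4 FPKM in CD31+CD34+ cells (SD, n = 3), stood at 365, 353 and 301 FPKM in CD43+ cells, and shares no 50-base stretch with SNRPN. The ratio of SNRPN to SNRPB went from between 1.22 and 1.75 in H1 libraries to between 0.334 and 0.457 in CD43+ libraries, which did not overlap. SNRPN was the higher of the pair in H1 and APLNR+ libraries and the lower in all CD31+CD34+ and CD43+ libraries.

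MEST, a paternally read gene of the hydrolase family linked to fetal growth, was high throughout. It stood at 88.8, 104 and 95.9 FPKM in H1 cells and 32.4, 38.9 and 38.0 FPKM in APLNR+ cells. It stood at 44.9, 56.1 and 49.2 FPKM in CD31+CD34+ cells and 52.5, 57.9 and 60.7 FPKM in CD43+ cells. H1 cells had the highest and APLNR+ cells the lowest level, and CD31+CD34+ and CD43+ libraries overlapped. The fall into mesoderm was called (-1.38 ± 0.11, SE, limma adjusted p 4.8e-07), and the partial return into CD31+CD34+ cells passed the test at under 2-fold (0.45, adjusted p 0.00276). CD43+ cells remained below H1 cells (-0.75, adjusted p 4.87e-05), also at under 2-fold. MEST shares 20.9% of its 50-base stretches with other genes, among them AC007938.2 (8.18%), MESTIT1 (6.97%), COPG2 (3.55%) and its pseudogene MESTP1 (1.57%).

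NNAT, a paternally read proteolipid gene set within an intron of BLCAP, was called in no comparison. The libraries held 9.05, 13.2 and 13.2 FPKM in H1, 13.8, 20.5 and 19.1 FPKM in APLNR+, 13.5, 22.3 and 19.2 FPKM in CD31+CD34+ and 9.73, 12.4 and 12.8 FPKM in CD43+ cells. The middle populations were higher than both ends, with log2 changes of 0.55 ± 0.20 into APLNR+ cells (SE, limma adjusted p 0.0348) and -0.59 into CD43+ cells (adjusted p 0.0278), both under 2-fold. Replicate 1 was the lowest library of NNAT in every population. It was also the shallowest of each, with relative depths of 0.693, 0.753, 0.555 and 0.753, and the part of depth in this was not tested. BLCAP, the host gene, went the other way at the first step, from 16.1 to 12.3 FPKM (-0.37, adjusted p 0.00561), and stood higher at the next (0.92, adjusted p 3.49e-06), neither called.

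PEG3, a paternally read zinc finger gene of chromosome 19, was listed at 0 in all 12 libraries. ZIM2, USP29, MIMT1 and ZIM3 of the same domain were listed at 0 in all 12 as well, and PEG3 shares 13.4% of its 50-base stretches with ZIM2. Of the 19480 symbols that GENCODE release 29 types as protein-coding, 7.30% were at 0 in every library. An exact 0 in this table can be a failed estimate, since EEF1A1, a translation elongation gene in constant use, was listed at 0 in 6 of the 12 libraries.

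**Figure D3:**
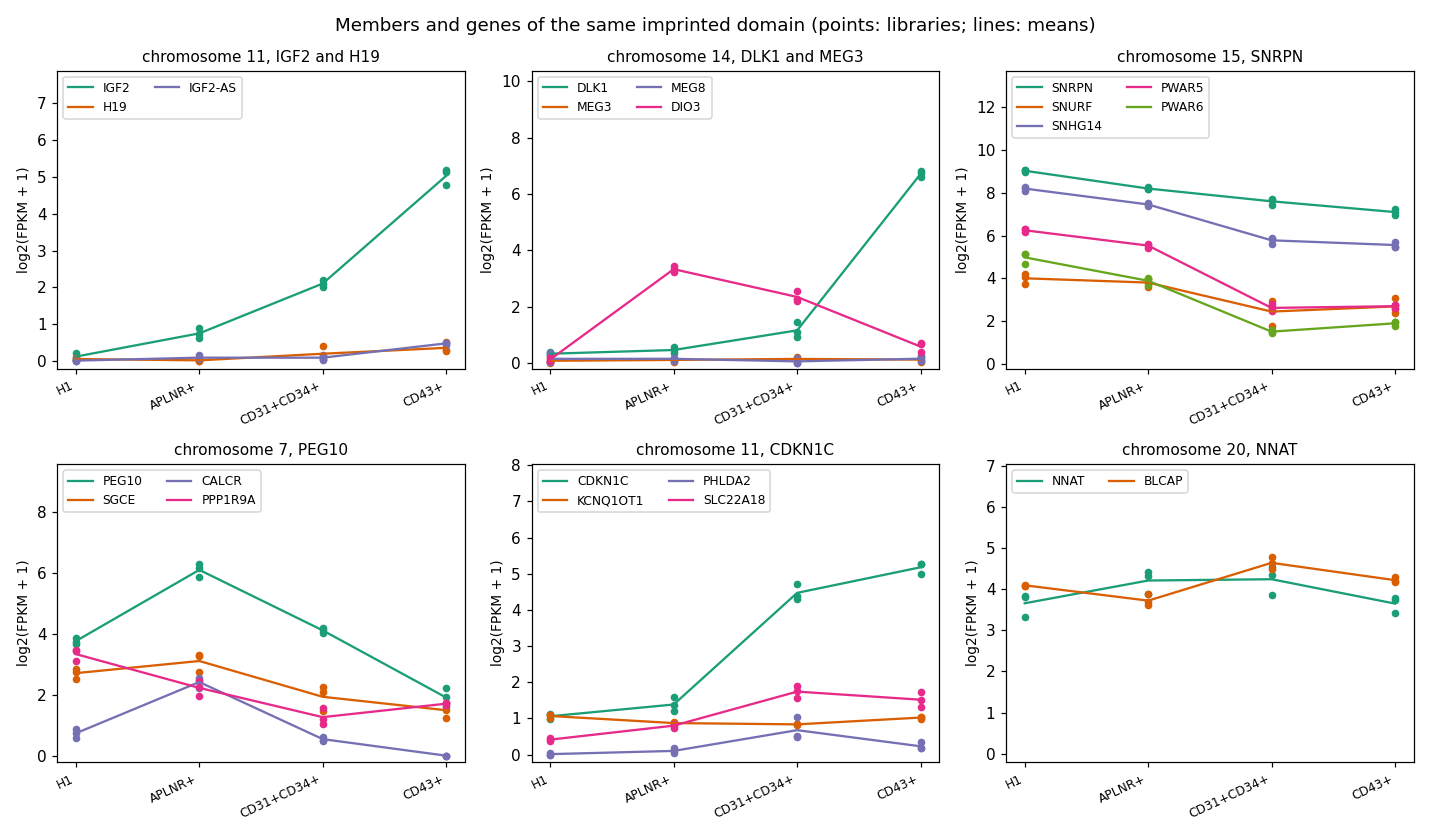
Levels of 6 of the genes, with H19 and MEG3, and of genes of the same imprinted domains (y axis, log2(FPKM + 1), points for libraries and lines for means) across the 4 populations (x axis). SNRPN and the RNAs downstream of it fell over the series, H19 and MEG3 stayed under 1 FPKM where IGF2 and DLK1 rose, and DIO3 was highest in APLNR+ cells.

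A list of 54 genes from the domains of the 10 was counted, of which 50 were in the table and 25 were tested. Of these 3 were raised and 2 lowered at the first step, and at the middle step, into CD31+CD34+ cells, 2 were raised and 7 lowered, against 8.3% raised and 7.62% lowered and then 12.5% and 17.1% of all genes. At the last step limma called 0 raised and 2 lowered (5 and 6 at an unadjusted p under 0.05), against 5.58% and 8.79%. Between H1 and CD43+ cells 2 were raised and 6 lowered, against 14.6% and 22.5%. Their median changes were -0.12, -0.54, -0.12 and -0.16 in these comparisons, beside -0.12, -0.01, -0.0049 and -0.10 over all genes tested. The 7 lowered at the middle step were SNHG14, PWAR5, PWAR6 and SNURF of chromosome 15 and SGCE, CASD1 and CALCR of chromosome 7. DIO3, a paternally read deiodinase gene at the far end of the DLK1 domain, was at 0.158, 0.0642 and 0.0509 FPKM in H1, 8.96, 9.73 and 8.46 FPKM in APLNR+, 3.58, 4.87 and 3.83 FPKM in CD31+CD34+ and 0.583, 0.615 and 0.302 FPKM in CD43+ cells. Its first and last steps were called (3.20, limma adjusted p 5.32e-10, and -1.76, adjusted p 1.51e-07). The ratio of DLK1 to DIO3 stood between 0.0270 and 0.0542 in APLNR+ libraries and between 179 and 315 in CD43+ libraries. CD81, a tetraspanin gene near CDKN1C on chromosome 11, rose at the middle step (1.87, adjusted p 6.46e-07) and fell at the last (-1.02, adjusted p 0.000215).

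A second list held 31 further imprinted genes, most of them of other domains, of which 17 were tested. At the consecutive steps limma called 0, 4 and 0 raised, with 7, 9 and 3 higher at an unadjusted p under 0.05, and 1 lowered at each step. Over all genes 8.3%, 12.5% and 5.58% were raised and 7.62%, 17.1% and 8.79% lowered. Between H1 and CD43+ cells 3 were raised and 2 lowered, against 14.6% and 22.5%. The median changes were 0.15, 0.40, -0.19 and 0.34, beside -0.12, -0.01, -0.0049 and -0.10 over all genes. TFPI2, which lies in the PEG10 region, supplied 1 of the 4 raised at the middle step and the 1 lowered at the last. PLAGL1, a paternally read zinc finger gene that activates other imprinted genes, was at 0.555, 0.999 and 0.740 FPKM in APLNR+ cells. It rose to 13.4, 15.2 and 14.9 FPKM in CD31+CD34+ cells (log2 change 3.14, limma adjusted p 2.63e-08). It stood at 9.93, 12.1 and 10.3 FPKM in CD43+ cells. CDKN1C was also raised at the step into CD31+CD34+ cells, as were 12.5% of all genes, and a link between PLAGL1 and CDKN1C was not tested. INPP5F, a phosphoinositide phosphatase gene, fell at the same step from 76.7 ± 8.87 to 12.5 ± 1.67 FPKM (SD, n = 3, log2 change -2.53, adjusted p 4e-09). TFPI2, a protease inhibitor gene, was highest at day 5, with 40.8, 54.7 and 54.8 FPKM in CD31+CD34+ libraries, and averaged 7.56 and 7.42 FPKM in the populations before and after. GLIS3 rose in small steps to a called difference between H1 and CD43+ cells (1.61, adjusted p 3.94e-08), and GNAS-AS1, the antisense RNA of GNAS, was lowered at the first step (-1.30, adjusted p 2.06e-05).

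Genes that set, keep or remove methylation at imprints formed another list of 23, of which 16 were tested. At each of the consecutive steps limma called 0 raised, with 3 higher at an unadjusted p under 0.05. Over all genes 8.3%, 12.5% and 5.58% were raised, so few of 16 would be raised at those shares. It called 3, 3 and 0 lowered, with 4, 7 and 3 lower at that p, against 7.62%, 17.1% and 8.79% of all genes lowered. Between H1 and CD43+ cells 1 was raised and 5 were lowered, against 14.6% and 22.5%. The median changes were -0.031, -0.24 and -0.055 at the steps and -0.35 over the series, beside -0.12, -0.01, -0.0049 and -0.10 over all genes. DNMT3B, a de novo DNA methyltransferase, was at 350, 370 and 359 FPKM in H1 cells and 61.5, 66.3 and 61.3 FPKM in APLNR+ cells (log2 change -2.49, limma adjusted p 2.49e-10). HELLS, a chromatin remodeler that supports DNA methylation, fell at the first and middle steps (-1.13 and -1.87), and SMCHD1, a silencing protein of imprinted clusters, at the middle step (-2.09, adjusted p 6.88e-09). TET1, which oxidizes methylated cytosine, fell at the middle step (-1.97, adjusted p 4.36e-06), while its relative TET2 was raised over the series from 0.526 to 3.96 FPKM (1.66, adjusted p 2.69e-05). DPPA3, which protects methylation in the early embryo, was lowered over the series (-1.37, adjusted p 5.37e-08). ZFP57, the zinc finger protein that marks imprints, was at or under 0.0755 FPKM in all libraries, and DNMT1, the maintenance methyltransferase, lay between 25.1 and 41.3 FPKM and was called in no comparison.

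The partners of IGF2 were read from a list of 20 genes, of which 19 were tested, with 3, 6 and 1 raised and 2, 1 and 5 lowered at the consecutive steps and 4 raised and 7 lowered between H1 and CD43+ cells. Over all genes 8.3%, 12.5%, 5.58% and 14.6% were raised and 7.62%, 17.1%, 8.79% and 22.5% lowered in these comparisons. Their median changes were 0.16, 0.035, -0.48 and -0.053, beside -0.12, -0.01, -0.0049 and -0.10 over all genes. IGF1, the related ligand, was highest at an earlier stage than IGF2, with 4.14, 5.17 and 2.84 FPKM in CD31+CD34+ cells, and fell to 0.112, 0.129 and 0.214 FPKM in CD43+ cells (-2.11, limma adjusted p 3.75e-07). IGF2R, the receptor that clears IGF2, averaged 9.57, 15.5, 23.4 and 12.1 FPKM in the 4 populations, and IGF1R, the signalling receptor, 18.6, 30.0, 31.5 and 18.3 FPKM, and neither was called. Of the binding proteins, IGFBP4 and IGFBP6 rose into CD31+CD34+ cells and fell at the step at which IGF2 rose most, with log2 changes of -2.20 and -2.72. IGFBP3 went the other way as the 1 raised gene of the list at that step. Its mean went from 1.77 to 5.78 FPKM (1.28, limma adjusted p 7.23e-06). IGFBP2 rose there at under 2-fold, from a mean of 210 to 309 FPKM (0.55, adjusted p 0.0093). IGFBP7 rose at the first and middle steps (1.32 and 1.81), and IGFBP2 stood at 296, 347 and 283 FPKM in CD43+ cells. HMGA2, a chromatin protein gene that acts upstream of IGF2, was lowered at the last step (-1.52, adjusted p 0.000149), from 26.1 ± 2.86 to 8.72 ± 2.89 FPKM (SD, n = 3).

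**Figure D4:**
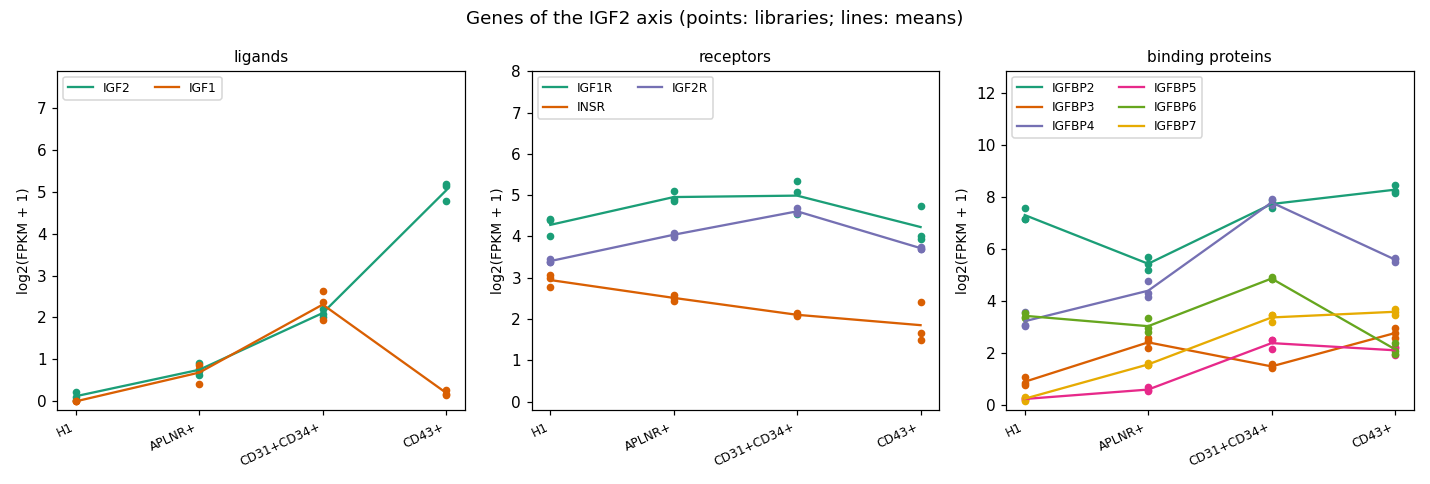
Levels of the IGF ligands, receptors and binding proteins (y axis, log2(FPKM + 1), points for libraries and lines for means) in the 4 populations (x axis). IGF1 and IGF2 ran side by side to CD31+CD34+ cells and parted in CD43+ cells, where IGF2 averaged 31.9 and IGF1 0.152 FPKM.

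For each of the 7 genes, the 2 genes with the most similar course were found by the root mean square difference of the 4 population means, each centred on its own mean on the log2(FPKM + 1) scale, among genes with a highest population mean of at least 10 FPKM. The nearest to IGF2 were ICAM4, a red cell adhesion molecule (difference 0.158), and MYB, a transcription factor of blood progenitors (0.222). Those of DLK1 were ITGB3, a platelet integrin (0.130), and PLEK, a protein of platelets and leukocytes (0.320). CDKN1C lay nearest to EMILIN1 (0.135), a matrix protein of vessels, and to GIMAP5 (0.145). PEG10 lay nearest to GNAL (0.163), a G protein subunit, and to the noncoding AP000943.2 (0.213). MEST followed MCM3 (0.0739), a DNA replication factor, and ECI2 (0.0920). SNRPN followed IGF2BP3 (0.0388), an RNA-binding protein of fetal tissue, and GSTO2 (0.0951), and NNAT followed SEL1L (0.0404) and RUSC1 (0.0475). These values describe 4 means over 12 libraries and carry no test.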

How the data were processed

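RNA-seq was analysed in 12 libraries, 3 per population, grouped and numbered by their titles. The authors deposited 1 table of FPKM values, in which each library has a column. Per the labels, BWA, Bowtie, RSEM and hg19 were used, without versions or roles, and any scaling between libraries is not given in the sources used here. The table had 58365 gene lines, and of the lines of a repeated symbol (345 symbols) that of highest mean was used. FPKM carries no read totals, so depth is unknown beyond the relative depths given, and 3 libraries per population limit the precision.

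Genes at 1 FPKM or more in at least 3 libraries (14840) were fitted on log2(FPKM + 1) with limma 3.58.1 in R 4.3.3 (lmFit, contrasts.fit, eBayes with trend), the 4 populations in 1 model without covariates, with Benjamini-Hochberg adjustment over all genes. The fit was tested on simulated data. Same-numbered libraries deviated together, with correlations over 0.1 in all 3 pairs, between H1 and CD43+ (0.174 to 0.386) and between CD31+CD34+ and CD43+ cells (0.192 to 0.392). This pairing rests on the data and not on the labels, and it did not hold for all pairs of the other compared populations. Single values and ratios were compared by exact two-sided permutation. Python 3.11.15 with numpy 2.4.6, pandas 2.3.3 and matplotlib 3.10.9 did the rest. Gene types came from GENCODE release 29 by symbol and promoter sequences from RefSeq. All 10 genes were named, with up to 6 of each list by largest change and SNURF, SGCE, BLCAP, KCNQ1OT1, SNRPB, IGF2R and IGF1R. Other genes were named after their values were seen. The 10 genes and the lists were chosen with earlier results of these data known.

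The alternatives were quantile normalization, upper-quartile scaling, rescaling without small RNA genes, a replicate block, no trend, summed repeated symbols, the compared populations alone, replicates 2 and 3 alone, a pseudocount of 0.1, a filter on means under 5 FPKM or none, and leaving out each library.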

Additional observations from a re-analysis of the deposited data

How the results depend on the processing

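The number of the 10 genes called stayed within 1.5 times that reported in every comparison and alternative, between 2 and 3 from H1 to APLNR+ cells, 3 and 4 from APLNR+ to CD31+CD34+ cells, and at 3 and 5 in the others, with or without each library. With a pseudocount of 0.1, IGF2 passed 2-fold from H1 to APLNR+ cells (2.09) and DLK1 from APLNR+ to CD31+CD34+ cells (1.49). Counts over all genes moved more: with that pseudocount from 2363 to 3632 at the first step and from 2133 to 3605 at the last, and with a mean of at least 5 FPKM, which tests fewer genes, to 1193 and 1313 and, between H1 and CD43+ cells, from 5501 to 3309. Directions turned only where no change had been called. The change of DLK1 from H1 to APLNR+ cells was -0.0011 with quantile normalization. That of NNAT from APLNR+ to CD31+CD34+ cells was -0.0046 with quantile normalization and ran from -0.13 to 0.23 when 1 library was left out. That of NNAT from H1 to CD43+ cells was 0.10 with upper-quartile scaling, 0.14 with quantile normalization and 0.052 without small RNA genes, and ran from -0.17 to 0.11 when 1 library was left out. The cause was not tested.

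Replicate numbers are shared between populations in the titles. The deviations of same-numbered libraries correlated by over 0.1 in all 3 pairs of H1 and CD43+ and of CD31+CD34+ and CD43+ libraries. For H1 and APLNR+ (-0.0214 to 0.429) and for APLNR+ and CD31+CD34+ libraries (0.0254 to 0.196) they did not. There, replicate 1 still correlated most with replicate 1, at 0.429 and 0.196, and replicates 2 and 3 did not correlate most with their own number. For replicates 2 and 3 of these populations the number may be no more than a number. Replicate 1 was also the shallowest library of each population, and the part of depth in its correlations was not tested. With the replicate block, 2369, 4410, 2140 and 5506 genes were called in place of 2363, 4400, 2133 and 5501, and no call among the 10 genes changed. Under the block, changes of less than 2-fold passed the adjusted p alone for CDKN1C from H1 to APLNR+ cells (0.0139 in place of 0.0526) and for MEST from CD31+CD34+ to CD43+ cells (0.0191 in place of 0.168).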
